A study of Drosophila melanogaster with 3 samples.

Results

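Replacement histone genes and histone chaperone genes were examined for the binding of YL-1 at their transcription start sites (TSSs) in Drosophila melanogaster embryos. The genes were a written list of 10: the replacement histone genes His3.3A, His3.3B and His4r, the variant histone genes cid and BigH1, and the chaperone genes Hira, asf1, Caf1-180, Caf1-105 and Nap1. All 10 matched the Ensembl annotation of the Release 6 assembly by symbol, among 13945 protein-coding genes on the chromosome arms. The chromatin came from whole embryos 0 to 24 h old, males and females pooled, of a stable transgenic line that makes YL-1 with GFP at its C-terminal end. The labels describe the immunoprecipitation as made with an antibody against GFP, while their antibody field names YL-1, and the DNA was sequenced. The series held 1 group of 3 biological replicates and no control group, so no comparison between groups was made. All libraries come from that line, and each value is an average over all cell types and stages of the day of embryogenesis. In such bulk chromatin, binding in fewer cells and less binding per cell cannot be told apart.

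Most histones are made in S phase from replication-dependent genes, which in Drosophila lie in a tandem repeat and give mRNAs without a poly(A) tail. Replacement histones come from single genes outside that repeat, are also made outside S phase, and enter chromatin independently of DNA synthesis. Histones do not travel alone: chaperones carry H3-H4 or H2A-H2B dimers from synthesis to the machines that place them in nucleosomes. YL-1 is itself part of this traffic, as a subunit of the Domino/Tip60 complexes, which swap H2A for H2Av in nucleosomes, and it binds the H2Av-H2B dimer.

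The start sites of 5 of the 10 genes are shown first. The 3 replacement histone genes (His3.3A, His3.3B and His4r) had a peak in every replicate, as did Nap1, which is not shown. Hira and Caf1-180 were close to the threshold of the peak list, Hira on its inner side and Caf1-180 on its outer side. Each is given 5′ to 3′ on the strand of its gene, from the Release 6 sequence as held by RefSeq, and ends 30 bases into the gene. Capitals mark matches to the motif letters first searched, described with the promoters further on, and not the shorter letters TATCGAT added later, which also occur in the Hira and Caf1-180 stretches. They are a TATAAA and, on the other strand, a GAGAG in His3.3B, and a TATAAA and a TTTCGCGC in Hira. The stretches in dm6 were chrX:9156640-9156839 (minus strand) for His3.3B, chr2L:5054987-5055087 (plus strand) for His3.3A, chr3R:14625674-14625784 (plus strand) for His4r, chrX:7721949-7722148 (plus strand) for Hira and chrX:8606275-8606474 (minus strand) for Caf1-180. The second His3.3A stretch, chr2L:5055119-5055148, surrounds the downstream start site of that gene, 15 bases on each side, and its capitals mark the motif 1 letters GGTCACAC.
His3.3A, upstream start site: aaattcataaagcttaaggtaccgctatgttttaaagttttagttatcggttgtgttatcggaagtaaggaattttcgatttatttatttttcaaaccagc
His3.3A, downstream start site: ccgatgaatatagGGTCACACtgagcagac
His3.3B: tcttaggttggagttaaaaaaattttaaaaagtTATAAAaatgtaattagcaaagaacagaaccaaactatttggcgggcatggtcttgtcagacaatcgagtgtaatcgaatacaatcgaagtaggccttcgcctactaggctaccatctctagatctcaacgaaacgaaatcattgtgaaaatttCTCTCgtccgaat
His4r: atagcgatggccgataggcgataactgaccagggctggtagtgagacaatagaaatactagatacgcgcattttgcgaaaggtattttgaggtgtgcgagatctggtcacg
Hira: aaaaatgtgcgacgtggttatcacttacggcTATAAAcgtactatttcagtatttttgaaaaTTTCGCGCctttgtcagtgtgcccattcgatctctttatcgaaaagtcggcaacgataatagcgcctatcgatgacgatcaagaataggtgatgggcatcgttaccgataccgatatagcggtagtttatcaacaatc
Caf1-180: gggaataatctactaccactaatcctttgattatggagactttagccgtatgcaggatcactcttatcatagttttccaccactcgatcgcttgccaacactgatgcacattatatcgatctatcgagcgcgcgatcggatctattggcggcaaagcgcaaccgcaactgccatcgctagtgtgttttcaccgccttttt

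The measurements were lists of enriched regions in the dm6 build. The list that passed the authors' irreproducible discovery rate (IDR) threshold held 5986 peaks, and the pooled libraries and each replicate had lists of 30000 regions that reach into background. The IDR peaks were the 5986 strongest regions of the pooled list, so the 5986 strongest regions of each replicate, here called top regions, were used beside them. Each region has a signal, the authors' own value, and a deposited summit. In the replicate lists the summit was the middle of the region for 97.3% to 98.8% of regions, which limits how finely positions can be read. The signal has a different scale in each library: the median of the top regions was 65.1, 62.4 and 103.5 in replicates 1, 2 and 3, and 218.5 in the IDR list. Signals were therefore compared within a list, or between replicates after division by that median. A gene is called bound in a list where a summit lay within 250 bp of one of its annotated TSSs. The lists hold no read counts, and the sequencing depth of the libraries is therefore unknown.

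YL-1 was bound at the start site of 7 of the 10 genes in the IDR list, against 33.4% of all protein-coding genes. The bound genes were the 3 replacement histone genes, the centromeric histone gene cid, the H3.3 chaperone gene Hira, the CAF-1 subunit gene Caf1-105 and the H2A-H2B chaperone gene Nap1. The genes not bound were BigH1, asf1 and Caf1-180. In the top regions of replicates 1, 2 and 3, the genes bound numbered 6, 5 and 6 of 10, a mean of 5.67 ± 0.577 (SD, n = 3). The shares of all protein-coding genes in those replicates were 32.8%, 31.3% and 32.3%. A stricter call, which asks for a top region in all 3 replicates besides the IDR peak, was met by 4 of 10 (His3.3A, His3.3B, His4r and Nap1), against 23.8% of all genes. Bound in no replicate's top regions were 2 of 10, BigH1 and asf1, against 60.1% of all genes. Every one of the 10 had some region of the pooled list within 250 bp of a TSS, against 52.2% of all genes. A list of 10 chosen genes was not tested against the rest of the genome, and these counts describe it beside those shares.

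**Figure D1:**
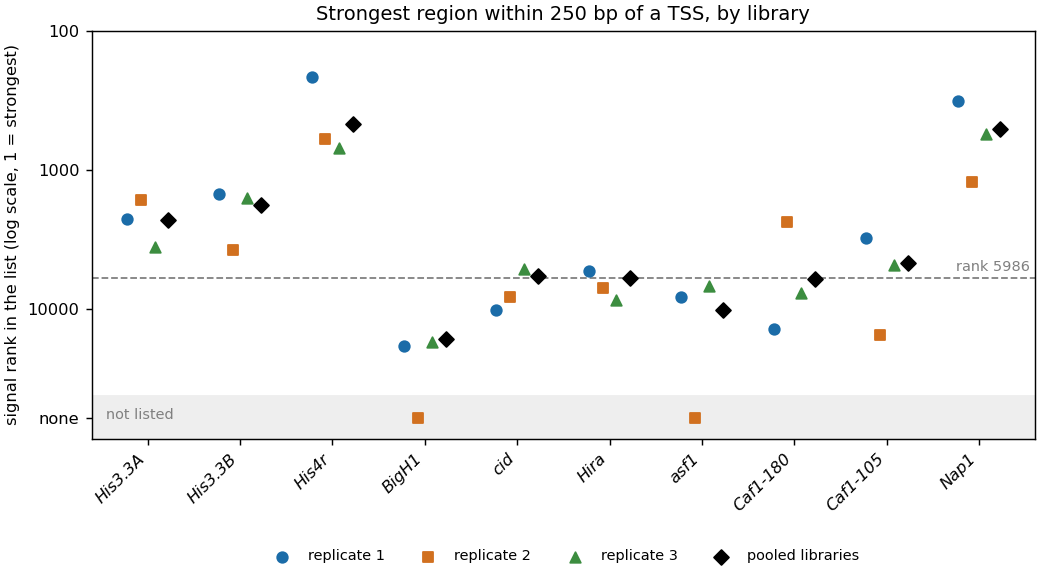
Rank of the strongest region within 250 bp of a TSS (vertical axis, log scale, rank 1 is the strongest) for each of the 10 genes in replicates 1, 2 and 3 and in the pooled libraries; the dashed line is rank 5986, the end of the IDR list and of the top regions. His3.3A, His3.3B, His4r and Nap1 lie above the line in every list, BigH1 and asf1 lie below it wherever they are listed (both are unlisted in replicate 2), and the other 4 genes have replicates on both sides.

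His3.3A and His3.3B encode the same H3.3 protein from different chromosomes, and YL-1 was bound at both in every replicate. His3.3A (FBgn0014857) lies at chr2L:5055058-5056149 on the plus strand and has a TSS at 5055058 and a downstream one at 5055134. Its strongest IDR peak, chr2L:5055044-5055260, had its summit at 5055165, in the 5′ UTR 31 bp inside the downstream TSS, with a signal of 251.2 at rank 2265 of 5986. A second, weaker IDR peak had its summit 230 bp inside that TSS, in the coding sequence, with a signal of 152.4 at rank 5222. In replicates 1, 2 and 3 the strongest region at His3.3A had a signal of 75.4, 81.2 and 93.5, at ranks 2246, 1644 and 3559. Its summit lay 31, 10 and 150 bp inside the downstream TSS in those replicates, so replicate 3 placed it farther into the gene than the others. The upstream TSS is 42 bp from the start of CG14036 on the opposite strand, and the IDR summit counted for that gene as well, at 149 bp. The 101 bases printed above span this shared promoter.

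His3.3B (FBgn0004828) lies at chrX:9152523-9156669 on the minus strand, and its most upstream TSS at 9156669 serves 2 of its 4 transcripts. The IDR peak, chrX:9156520-9156714, had its summit at 9156639, in the 5′ UTR 30 bp inside the gene, with a signal of 278.2 at rank 1765. The strongest region within 250 bp had a signal of 90.4, 55.2 and 137.4 in replicates 1, 2 and 3, at ranks 1476, 3747 and 1590, with summits 28, 56 and 34 bp inside the gene. Replicate 2 was the weakest by rank, and also listed stronger regions in introns. The strongest lay 340 bp inside the gene with a signal of 65.4, and another, 383 bp upstream of the TSS at 9155613, had a signal of 56.4. The other start sites of His3.3B had weaker regions in the pooled libraries. The summit nearest the TSS at 9155012 was 165 bp away with a signal of 41.1 at rank 24667, and the one nearest the TSS at 9155613 was 258 bp away with a signal of 126.2 at rank 6583.

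A pair of IDR peaks also lay just past the 3′ end of His3.3B, in the gap before the neighbouring gene Bap111. The nearer summit was 91 bp past the end of the gene with a signal of 206.4 at rank 3316, and the farther one 293 bp past it with a signal of 236.5 at rank 2567. Replicate 1 listed both, the nearer with a signal of 89.9 at rank 1493 and the farther with 97.5 at rank 1191. Replicate 2 listed 1 region there with a signal of 85.6 at rank 1418, and replicate 3 listed 1 with a signal of 71.6 at rank 5289. All of these were top regions of their replicate. The strongest of them exceeded the region at the upstream TSS in replicates 1 and 2 (90.4 and 55.2 at the TSS), but not in replicate 3 (137.4). Counting IDR summits that lay up to 500 bp past the 3′ end of a gene and over 250 bp from every TSS, a count chosen after these regions were seen, His3.3B was the 1 gene of 10 with such a summit, against 0.66% of all protein-coding genes.

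**Figure D2:**
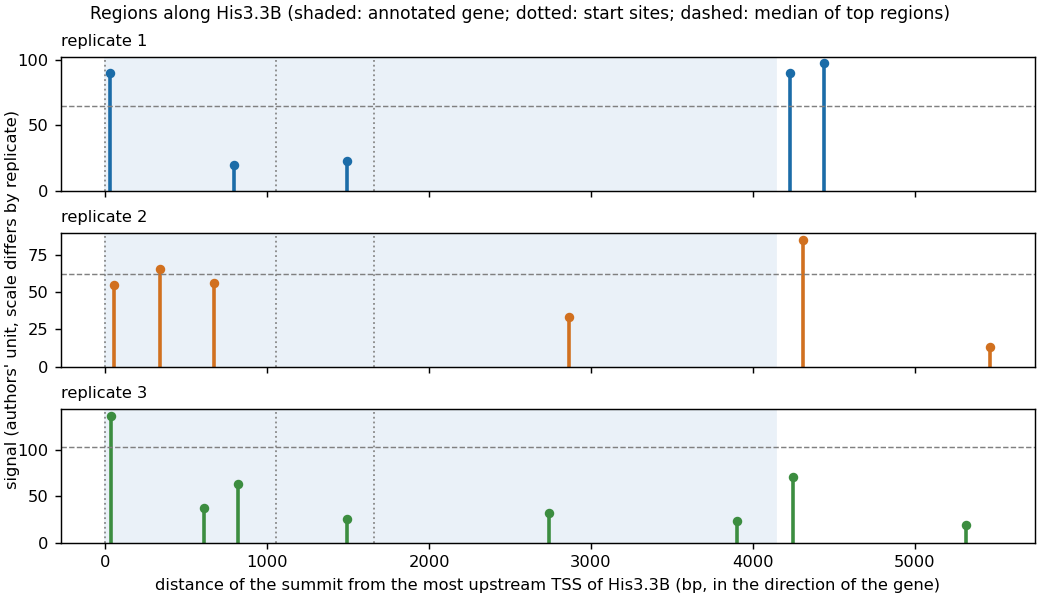
Regions along His3.3B in replicates 1, 2 and 3, 1 panel each: the horizontal axis is the distance of the summit in bp from the most upstream TSS, the vertical axis the authors' signal on the scale of that replicate. The shaded band is the annotated gene, dotted lines are its 3 start sites and the dashed line is the median of the top regions; each replicate has a region at the upstream TSS and at least 1 just past the 3′ end.

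His4r, which encodes an H4 protein outside the repeat, had the strongest peak of the 10 genes. The gene (FBgn0013981) lies at chr3R:14625755-14626614 on the plus strand. The summit at 14625728 was 27 bp upstream of the first TSS, in an interval at chr3R:14625550-14626093, with a signal of 432.3 at rank 466 of 5986. A second summit in the same interval, 142 bp inside the downstream TSS in the 5′ UTR, had a signal of 196.6 at rank 3559. In replicates 1, 2 and 3 the strongest region had a signal of 154.0, 112.0 and 183.0, at ranks 212, 598 and 686, so His4r stood in the upper part of every list. The gene put, which encodes an activin receptor, starts 52 bp upstream on the opposite strand, and its TSS was 25 bp from the same summit. The peak can therefore not be given to one gene or the other. By rank of IDR signal, the promoters next to His4r were that of eEF5, a translation factor gene, with a signal of 432.4 at rank 465, and that shared by the DNA repair gene Brca2 and by CG4612, with a signal of 432.2 at rank 467.

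The variant histone genes were near the threshold or below it. The centromeric H3 gene cid (FBgn0040477, chr2R:13485617-13486631, plus strand) had an IDR summit 24 bp upstream of its TSS with a signal of 142.1 at rank 5728, near the end of the list. Its strongest region had a signal of 28.1, 32.5 and 73.3 in replicates 1, 2 and 3, at ranks 10088, 8119 and 5134. Only replicate 3 had it among the top regions. The mRNA processing gene cbc starts 226 bp upstream of cid on the opposite strand, and its TSS was 202 bp from the summit. BigH1 (FBgn0038252, chr3R:14663450-14664822, plus strand), which encodes the linker histone of the early embryo, had no IDR summit nearer than 3831 bp. Its strongest region within 250 bp had a signal of 17.8 in replicate 1 and 28.2 in replicate 3, at ranks 18326 and 17214, and replicate 2 listed none there. In the pooled libraries the region 113 bp upstream of BigH1 had a signal of 57.1 at rank 16293, and a stronger one lay in its intron, 917 bp inside the gene, with a signal of 78.2 at rank 11276.

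Of the H3-H4 chaperone genes among the 10, Hira and Caf1-105 were inside the threshold and Caf1-180 and asf1 outside it. Hira places H3.3 in chromatin outside S phase, and in Drosophila it is needed to assemble the paternal chromatin of the zygote. Hira (FBgn0022786, chrX:7722119-7725917, plus strand) had an IDR summit 61 bp upstream of its TSS with a signal of 137.8 at rank 5950, among the last peaks of the list. The last IDR peak had a signal of 137.23 at rank 5986 and the first pooled region outside the list one of 137.20. In replicates 1, 2 and 3 the region at Hira had a signal of 46.4, 36.2 and 48.6, at ranks 5294, 7028 and 8543, and its summits were 62, 46 and 61 bp upstream. The position was thus nearly the same in the 3 replicates, while the region was among the top regions in replicate 1 only.

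Caf1-180 and Caf1-105 encode subunits of CAF-1, which places H3-H4 behind the replication fork, and they fell on opposite sides of the threshold. Caf1-105 (FBgn0033526, chr2R:10466001-10468540, minus strand) had an IDR summit 7 bp inside the gene with a signal of 166.3 at rank 4633. Its strongest region had a signal of 64.5, 20.7 and 77.6 in replicates 1, 2 and 3, at ranks 3050, 15233 and 4771, so replicate 2 stood far below the others. Replicate 2 listed a stronger region outside the window, 544 bp upstream in an intron of CG11777, with a signal of 51.4 at rank 4202. CG11777 starts 76 bp upstream of Caf1-105 on the opposite strand, 83 bp from the IDR summit. Caf1-180 (FBgn0030054, chrX:8602137-8606304, minus strand) had its strongest pooled region 32 bp inside the gene with a signal of 135.9 at rank 6061, just outside the IDR list, and no IDR summit nearer than 17459 bp. Its replicates ran the other way: signals of 21.9, 70.3 and 53.4 at ranks 13953, 2343 and 7665, with replicate 2 alone among the top regions.

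The gene asf1 (FBgn0029094, chr3L:19618894-19620398, plus strand) encodes the chaperone that passes H3-H4 to both Hira and CAF-1, and it was not bound at the 250 bp window. The nearest IDR summit was 397 bp upstream with a signal of 148.2 at rank 5417, and lay 24 bp from the TSS of the divergent gene l(3)76BDm. Within 250 bp of the asf1 TSS the strongest pooled region had a signal of 85.5 at rank 10145. Replicate 1 listed a region with a signal of 33.4 at rank 8097, replicate 3 one with a signal of 59.1 at rank 6758, and replicate 2 none. A window of 500 bp takes in the peak of the neighbour, and asf1 then counts as bound.

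Nap1 encodes a chaperone of H2A-H2B, and its peak was the second strongest of the 10 genes. The gene (FBgn0015268) lies at chr2R:23905175-23907294 on the minus strand and has start sites at 23907294, 23907162 and 23907011. The IDR summit at 23907206 was 44 bp upstream of the middle one, with a signal of 422 at rank 504. In replicates 1, 2 and 3 the strongest region had a signal of 141.6, 90.2 and 193.5, at ranks 315, 1217 and 546, with summits 6 bp inside, 46 bp upstream and 14 bp inside relative to the same TSS. All replicates thus placed the strongest region at the middle start site. Replicates 1 and 3 also listed a second top region, 64 and 57 bp upstream of the most upstream TSS. Those regions had signals of 65.3 and 104.3 at ranks 2969 and 2954, and replicate 2 listed no second region there. The nearest divergent gene, kcc, starts 360 bp from the most upstream TSS of Nap1 and was not bound.

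**Figure D3:**
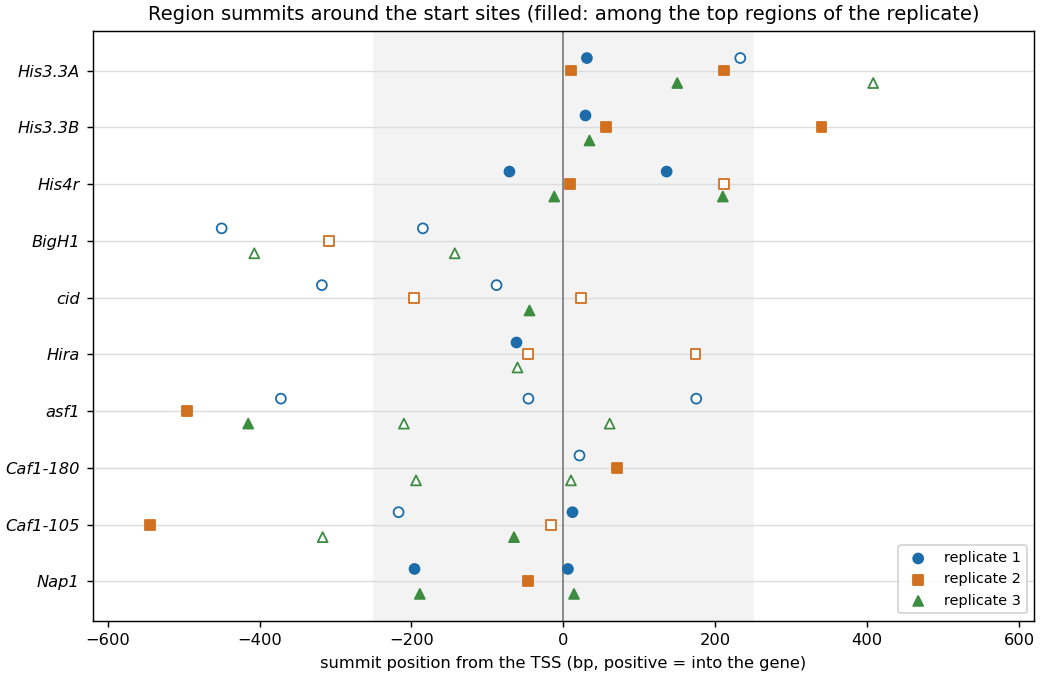
Summit positions around the start sites of the 10 genes in replicates 1, 2 and 3: the horizontal axis is the distance in bp from 1 TSS per gene, positive into the gene. That TSS is the one nearest the summit of the strongest pooled region, and the shaded band is the 250 bp window around it. Filled symbols are top regions of the replicate and open symbols weaker ones; His3.3A, His3.3B, His4r and Nap1 have a filled symbol of every replicate in the band, while BigH1 and asf1 have open symbols or none there.

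To set the genes side by side, the signal of the strongest region in each replicate was divided by the median of that replicate's top regions and taken to log2. His4r was highest, with a relative signal of 0.97 ± 0.24, followed by Nap1 with 0.85 ± 0.30, His3.3B with 0.24 ± 0.36 and His3.3A with 0.15 ± 0.27 (log2, mean ± SD, n = 3). Below the median were Caf1-105 with −0.67 ± 0.82, Caf1-180 with −0.79 ± 0.89, Hira with −0.79 ± 0.30 and cid with −0.88 ± 0.36. For asf1 and BigH1, which replicate 2 did not list, replicates 1 and 3 gave −0.96 and −0.81 for asf1 and −1.87 and −1.88 for BigH1. Of neighbours in this order, only Nap1 and His3.3B had replicate ranges that did not overlap: 0.53 to 1.12 for Nap1 and −0.18 to 0.47 for His3.3B. The ranges of all other neighbours overlapped, so these neighbours did not differ beyond their spread. The genes were compared by these ranges, with no test.

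The spread between replicates was typical for most of the genes and wide for the CAF-1 pair. The 8 genes listed in all replicates had a median SD of 0.33 on this scale, against 0.32 for the 5757 protein-coding genes so listed. The SD was wider than that of 96.2% of these genes for Caf1-180 and of 94.8% for Caf1-105, a comparison added after their values were seen. The relative signal of Caf1-180 was −1.57, 0.17 and −0.96 in replicates 1, 2 and 3. That of Caf1-105 was −0.01, −1.59 and −0.42. Replicate 2 was thus the highest for Caf1-180 and the lowest for Caf1-105, and the mean of Caf1-105 without it was −0.21. The replicate 2 value of Caf1-105 leaves out the stronger region 544 bp upstream, with a signal of 51.4. That region lay outside the window, in an intron of the divergent gene CG11777. The spread of Caf1-105 therefore depends on the 250 bp window as well.

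**Figure D4:**
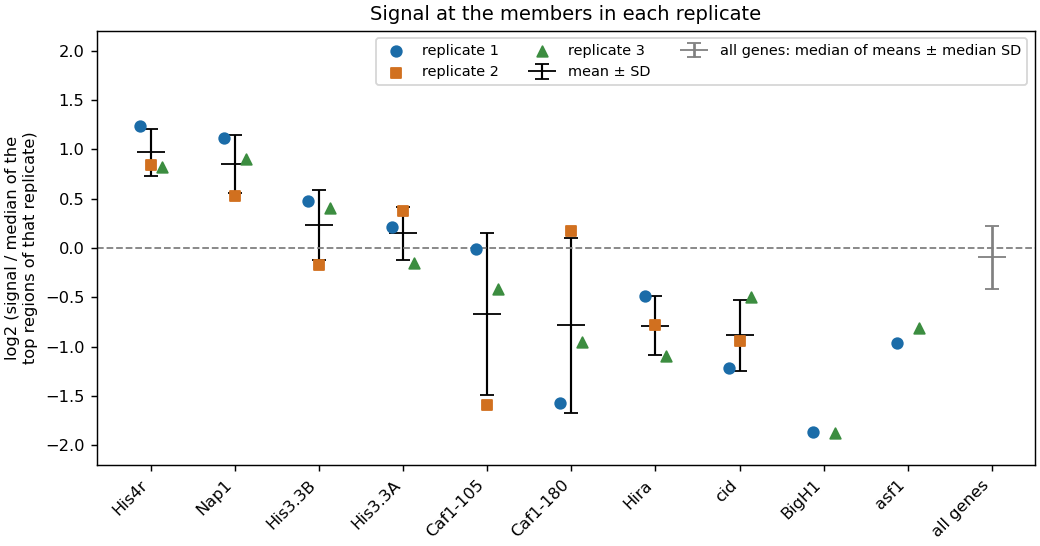
Relative signal of the 10 genes in replicates 1, 2 and 3, on the vertical axis as log2 of the signal over the median of the top regions of that replicate (dashed line at 0). Black bars are the mean ± SD of 3 replicates and the grey bar gives the median of the means ± the median SD over all protein-coding genes listed in all replicates; His4r and Nap1 are above 0 in every replicate, Hira and cid below 0, and Caf1-105 and Caf1-180 spread widest.

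In the IDR list, the 7 bound genes had a median signal of 251.2, with a lowest value of 137.8 and a highest of 432.3, against a median of 251.6 over all 4655 bound protein-coding genes. The median peak of the group was thus nearly that of all bound genes, while single genes ran from the edge of the list to rank 466. A divergent neighbour started within 250 bp of 4 of the 10 genes: CG14036 at His3.3A, put at His4r, cbc at cid and CG11777 at Caf1-105. The share of all protein-coding genes with such a neighbour was not computed, so this count is not read as a trait of the list. In these 4 promoters the same summit counted for both genes, so the call alone does not assign the signal to either gene. The summit lay 31, 24 and 7 bp from His3.3A, cid and Caf1-105, against 149, 202 and 83 bp from their neighbours. At His4r it lay 27 bp from that gene and 25 bp from put. The summits at His3.3B, Hira and Nap1 had no TSS of another gene within 250 bp.

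YL-1 was also bound at most genes of a wider list of histone chaperone and related genes, called the other chaperone genes for short. Of 20 names written down, 17 genes were matched: 2 names are older names of a listed gene, and Dlp matched a gene of other function and was left out. Of these 17, 15 were bound in the IDR list, against 33.4% of all protein-coding genes. In the top regions of replicates 1, 2 and 3 the count was 14, 13 and 14 (mean 13.7 ± 0.577, SD), against 32.8%, 31.3% and 32.3% of all genes. The stricter call was met by 11 of 17, against 23.8% of all genes. The list was not tested against the genome. The strongest was the peak in the shared promoter of Nlp and Nph, nucleoplasmin family genes, with a signal of 448.1 at rank 405 and its summit 73 bp from the TSS of Nlp and 3 bp from that of Nph. Next was Dek, with a signal of 393.5 at rank 658. The summit of that Dek peak lay 168 bp upstream of the nearest Dek TSS, and the peak interval ended before that TSS. XNP, the fly counterpart of the H3.3-linked remodeller ATRX, followed with a signal of 380.5 at rank 725 and its summit 1 bp from the TSS.

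The further bound genes of this list included the third CAF-1 subunit gene Caf1-55, the Hira partner gene yem, the Cid loading factor gene cal1, both subunit genes of the FACT complex (Ssrp and dre4), Nasp, Set, Spt6, Hat1, abo and P32. Caf1-55 had nearly the same relative signal in every replicate, 0.60, 0.56 and 0.59 on the log2 scale, in contrast to the other CAF-1 genes. The weakest was Set, with a signal of 172.8 at rank 4389. The genes yem, Set, Spt6 and abo were bound in the top regions of 2 replicates only. No region lay within 250 bp of a TSS for yem in replicate 3, Set in replicate 1 and Spt6 in replicate 2. In replicate 2 abo was at rank 10399. The IDR summits of cal1 and Spt6 lay 219 and 203 bp from the TSS, near the edge of the window. The 2 genes not bound, mil and CG3708, had no region within 250 bp of a TSS in any of the lists. The H2Av gene His2Av, whose product YL-1 binds, had an IDR summit 92 bp upstream of its TSS with a signal of 342.3 at rank 1013 and was bound in all 3 replicates.

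**Figure D5:**
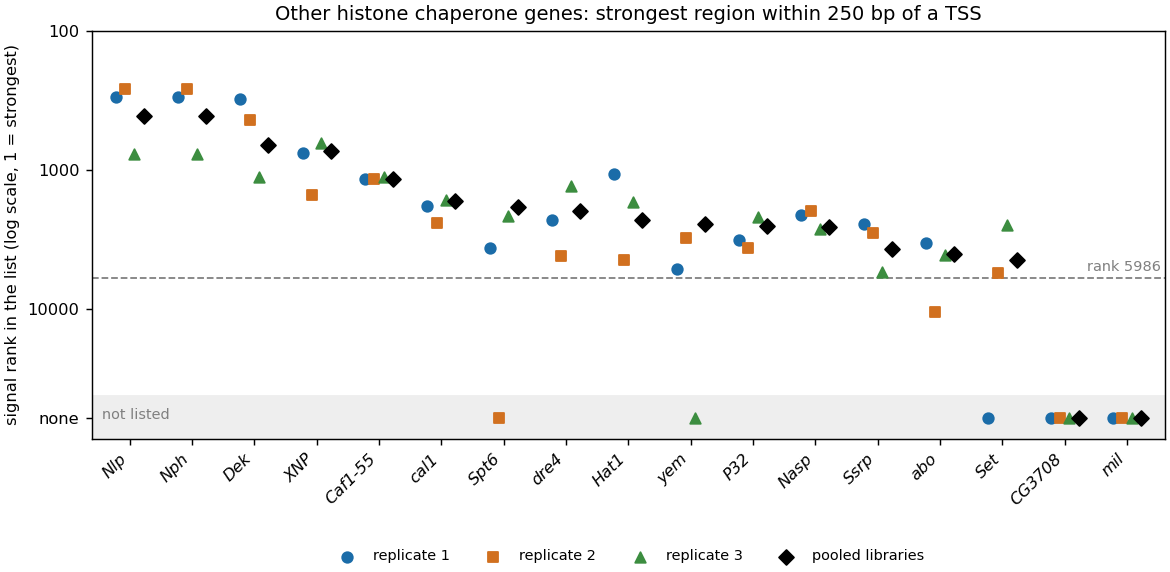
Rank of the strongest region within 250 bp of a TSS (vertical axis, log scale, rank 1 is the strongest) for the 17 other histone chaperone and related genes in replicates 1, 2 and 3 and in the pooled libraries, in the order of the pooled rank. The dashed line is rank 5986; 15 genes lie above it in the pooled libraries, and CG3708 and mil have no region in any list.

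The replication-dependent histone genes, set against the replacement genes, had no region at all. Their 111 annotated genes cover chr2L:21416953-21541681, a span of 124729 bp. Within it lay 0 regions of the IDR list, of the pooled list and of each replicate list, and the nearest pooled regions were 19714 bp before it and 16754 bp after it. Windows of the same length along the arms held no pooled region in 8.60% of cases and no IDR peak in 21.3%. The copies of the repeat are nearly identical, so reads from them map to many places. The sources used here do not say how such reads were treated, so the listing of no region cannot be read as absence of YL-1. His4r and the His3.3 genes lie outside the repeat, and the strongest IDR summit of each was upstream of or in the first part of the gene. His3.3B also had the pair of IDR peaks past its 3′ end described above.

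The promoters, 250 bases before to 50 bases from the TSS nearest the strongest peak, were searched on both strands for fixed letters. For genes outside the list of 10 that were not bound, the most upstream TSS was used. The shares of bound and not bound promoters thus rest on TSSs chosen by different rules, and the effect of this was not tested. Motif 1 (GGTCACAC), a core promoter element of broadly expressed fly genes, was found in 4 of the 10 genes: His3.3A, Caf1-105, cid and Nap1. It was found in 18.3% of bound promoters, 2.72% of promoters not bound and 7.93% of all promoters. In His3.3A its first base was 2 bases before the downstream TSS, as in the 30 bases printed above, in Caf1-105 5 bases and in cid 7 bases after the TSS. In Nap1 it lay on the other strand, 171 bases before the TSS. The 4 genes with motif 1 were all bound, as were 3 of the 6 without it, against 77.1% of all promoters with it and 29.6% of all those without it.

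The DNA replication-related element DRE (TATCGATA) was found in 0 of the 10 genes, against 18.8% of bound promoters and 9.32% of all promoters. Its first 7 letters (TATCGAT), a search added after this was seen, were present in Hira 42 bases before the TSS, in Caf1-180 57 bases before it, and farther off in BigH1 and cid, against 33.3% of bound promoters and 18.1% of all. Letters typical of E2F sites (TTTGGCGC, TTTCCCGC or TTTCGCGC), found at many S-phase genes, were present in Hira, 108 bases before the TSS, and in asf1, and in 4.88% of all promoters. TATAAA was found in His3.3B, Hira and cid, against 45.5% of all promoters, and the match nearest the TSS began 137 bases before it in His3.3B, 139 bases before it in Hira and, on the other strand, at the TSS itself in cid. The E-box CAGCTG was found in His3.3A, asf1 and cid, against 18.1% of all promoters, GAGAG in His3.3B, against 30.1%, and the Zelda letters CAGGTAG in 0 of 10, against 1.65%. A match describes the letters in this window and is not a measured site. The GC content of these promoters was between 24.7% in BigH1 and 47.7% in His4r.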

How the data were processed

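YL-1 was mapped by chromatin immunoprecipitation and sequencing in 3 biological replicates of 1 group, with chromatin sonicated to 200 to 800 bp, per the labels. The deposited region lists in dm6 were used: 1 for each replicate, 1 for the pooled libraries and the IDR list. Not given in the sources used here are the read aligner and the caller of the regions. Control libraries were not analysed here, and the dm3 lists were not used here. The signal of each region is the authors' value as deposited, and summit positions came from the offset to the region start (bp) deposited by the authors. The lists have a set length, so replicates were compared by their 5986 strongest regions. No read counts are given, so no counting interval could be computed.

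TSSs came from Ensembl release 115 and sequence from the RefSeq copy of Release 6. Genes were called bound by a summit within 250 bp of any TSS, and a summit could count for more than 1 gene. Where regions were compared by overlap, it was at least 1 bp. For motifs, the TSS nearest the strongest IDR summit was used, or for other genes the most upstream TSS (for the 3 listed genes not bound, the TSS nearest a pooled summit). The members and lists were chosen with earlier results of these data known. Named are the 10 genes, the other chaperone genes by their call with values for the 3 strongest and for those not bound, His2Av, genes sharing a summit with a member, and the promoters ranked next to the strongest member. Caf1-55, Set, yem, Spt6, abo, cal1, Bap111, l(3)76BDm and kcc were given values after these were seen. The alternatives tried were other windows, rules for bound, start sites, lists, signal scales and replicates left out. The steps were tested on simulated data. Python 3.11.15, numpy 2.4.6, pandas 2.3.3 and matplotlib 3.10.9 were used.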

Additional observations from a re-analysis of the deposited data

How the results depend on the processing

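His3.3A, His3.3B, His4r and Nap1 were bound under all 13 alternatives to the rule, the start sites, the list or the replicates. Caf1-105 was bound under 11, cid and Hira under 8 each, asf1 under 4, Caf1-180 under 2 and BigH1 under 1. Part of these tallies was fixed in advance. The windows of 500 and 1000 bp and the larger pooled lists hold every main call, so no bound gene could be lost there. The 100 bp window, the peaks above the median signal, the closest start site alone and the most upstream TSSs could add no gene. With the IDR peaks above the median signal only, 4 of the 10 genes were bound, against 20.9% of all genes. With all pooled regions, 10 of 10 were bound, against 52.2%. Windows of 100, 500 and 1000 bp gave 7, 8 and 8 genes, against 23.6%, 37.6% and 40.8% of all genes. Taking 2 times as many pooled regions gave 9, against 43.2%, and top regions shared by all 3 replicates gave 5, against 27.3%. In that count and without replicate 1, Caf1-105 rests on an overlap of 13 bp between the replicate 3 region at its TSS and a replicate 2 region 544 bp upstream. With each replicate left out in turn, using the top regions shared by the others, 4 to 5 of the 10 genes were bound, 4 of them without replicate 3, where Caf1-105 was lost. Those settings gave 13 to 14 of 17 other chaperone genes, 29.1% to 29.9% of all genes and 0 replication-dependent histone genes. That rule asks for both remaining replicates, and cid and Hira were not bound under it whichever replicate was left out. The median relative signal of the bound genes, 0.15 (log2), was 0.03 to 0.15 with a replicate left out and 1.80 over the median of all regions, a larger scale by construction. Of the 17 other chaperone genes, the 100 bp window left 11 bound, against 23.6% of all genes. The IDR peaks above the median signal left 12, against 20.9%. Letting a peak count for 1 start site alone, the closest, also left 12, against 28.2%. Top regions shared by all 3 replicates gave 13. Peak intervals that cover a TSS gave 14, as did the most upstream TSSs. The wider windows and the larger pooled lists gave 15. With Daxx added to the other chaperones, after seeing the data, 15 of 18 were bound. No paired analysis was possible because the series has 1 group. Without read counts, how far depth limits the calls is unknown, and a region just inside rank 5986 differs little from one just outside.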
